A study of Mus musculus with 12 samples.

Results

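The genes described here encode the presynaptic machinery that stores neurotransmitter in synaptic vesicles and releases it at the active zone. They were the 44 genes of a list of vesicle proteins, SNAREs, active zone scaffolds and release regulators, looked up by Ensembl ID among 55401 gene IDs. All 44 were found, each on 1 row, and all 44 were among the 21958 genes with enough counts to be tested, so none was lost to the filter on low counts. By role they comprise 9 calcium sensors and their relatives, 11 vesicle proteins, 10 genes of the SNARE fusion machinery, 12 active zone genes and 2 genes of vesicle endocytosis.

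RNA was sequenced from the medial prefrontal cortex (mPFC) of male mice, a cortical area involved in the extinction of learned associations, after 2 weeks of extinction of conditioned place preference (CPP), a test in which an animal comes to prefer a place paired with a drug. Conditioning used morphine, an opioid, or saline. The 3 groups of 4 libraries were mice given morphine and an adeno-associated virus (AAV) that knocks down the serotonin receptor 5-HT6R, encoded by Htr6 (AAV-5-HT6Rkd-Morphine); mice given morphine and a scramble AAV (AAV-Scramble-Morphine); and mice given saline and the scramble AAV (AAV-Scramble-Saline). Every library therefore came from AAV-treated tissue, and no mice received both the knockdown and saline. The promoter and the cell types the virus reached, the strain and the age are not stated in the labels, and nothing there says whether a library is 1 animal or a pool, so p-values measure only the spread between these libraries. Total counts per library lay between 41483220 and 65739423. Htr6, the targeted transcript, was at 4.49, 5.30, 3.82 and 5.46 CPM (counts-per-million) in knockdown libraries with morphine, at 5.30, 5.16, 4.82 and 5.58 CPM in scramble libraries with morphine and at 5.45, 6.92, 4.35 and 7.98 CPM in scramble libraries with saline, so all 3 groups overlapped. CT010467.1 is a ribosomal RNA locus. Its share of counts was 4.57 to 9.38% in the knockdown group and 3.58 to 5.63% in scramble mice with saline. In scramble mice with morphine it was 2.38 to 3.04%, without overlap with either group. Fits with that share as a covariate therefore cannot separate share from group in comparisons that involve scramble mice with morphine. Its part in the results was not tested beyond those fits, which are given beside the results. Protein-coding genes took 86.0 to 91.0% of counts in knockdown libraries, 92.8 to 93.3% in scramble libraries with morphine and 90.1 to 92.2% in scramble libraries with saline, and the 8 markers of pericytes and meningeal fibroblasts, all detected, summed to 229 to 334 CPM in knockdown libraries, 185 to 246 CPM in scramble libraries with morphine and 175 to 226 CPM in scramble libraries with saline; their part was not tested either. All 9 listed markers of cortical excitatory neurons and all 8 of interneurons were detected in every library, and so were all 7 markers of striatal projection neurons, whose summed level was 159 to 195 CPM in knockdown libraries, 182 to 215 CPM in scramble libraries with morphine and 201 to 229 CPM in scramble libraries with saline.

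As background, a vesicle loaded with transmitter docks at the active zone, is primed by Munc13 and RIM proteins, and fuses when SNARE proteins on the vesicle (synaptobrevin, encoded by Vamp1 and Vamp2) and on the plasma membrane (syntaxin and SNAP-25) zipper together. Synaptotagmins bind the incoming calcium and trigger that step, complexins clamp and then aid it, and NSF with its SNAP adaptors takes the complexes apart again. In the prefrontal cortex this machinery serves glutamate release from pyramidal neurons and GABA release from interneurons, and many of its parts come in paralogues that different neuron types use in different proportions.

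The promoters of 4 members are shown, chosen by log2 fold change in the knockdown comparison among members with a RefSeq promoter window. Rims3 and Bsn had the 2 highest values and also the 2 smallest edgeR p-values of the members. Erc2 and Sv2b had the 2 lowest values and varied together from library to library. Each sequence is the RefSeq window from 250 bases before to 50 bases after a transcription start in the build GRCm38.p6, 300 bases, written 5′ to 3′ on the strand of the gene. They lie at chr4:120854549-120854848 on the plus strand for Rims3, chr9:108190334-108190633 on the minus strand for Bsn, chr14:27622157-27622456 on the plus strand for Erc2 and chr7:75309213-75309512 on the minus strand for Sv2b, for which the most upstream of 4 windows is given. Capitals mark matches on either strand to 4 motifs, the GC box GGGCGG, the NRF1 motif (GCGCA followed directly by TGCGC), the cAMP response element TGACGTCA and the TATA motif TATAAA, with 0 overlapping matches in these windows.
Rims3: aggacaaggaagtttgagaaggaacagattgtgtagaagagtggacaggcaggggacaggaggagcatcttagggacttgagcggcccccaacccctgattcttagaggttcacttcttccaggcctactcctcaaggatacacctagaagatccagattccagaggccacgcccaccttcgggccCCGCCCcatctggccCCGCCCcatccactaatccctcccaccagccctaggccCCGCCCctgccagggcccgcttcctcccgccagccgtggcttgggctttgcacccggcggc
Bsn: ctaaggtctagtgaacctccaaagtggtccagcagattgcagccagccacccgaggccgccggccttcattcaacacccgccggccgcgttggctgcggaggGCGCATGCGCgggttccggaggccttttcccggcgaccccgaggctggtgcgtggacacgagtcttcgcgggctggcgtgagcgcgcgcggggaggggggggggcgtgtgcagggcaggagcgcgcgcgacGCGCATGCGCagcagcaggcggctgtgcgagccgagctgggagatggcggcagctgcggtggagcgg
Erc2: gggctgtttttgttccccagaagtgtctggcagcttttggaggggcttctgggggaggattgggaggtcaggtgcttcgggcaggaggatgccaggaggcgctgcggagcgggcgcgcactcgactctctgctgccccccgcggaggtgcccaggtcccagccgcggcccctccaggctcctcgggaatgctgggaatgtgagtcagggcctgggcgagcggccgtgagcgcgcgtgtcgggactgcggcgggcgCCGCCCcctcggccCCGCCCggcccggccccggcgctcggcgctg
Sv2b: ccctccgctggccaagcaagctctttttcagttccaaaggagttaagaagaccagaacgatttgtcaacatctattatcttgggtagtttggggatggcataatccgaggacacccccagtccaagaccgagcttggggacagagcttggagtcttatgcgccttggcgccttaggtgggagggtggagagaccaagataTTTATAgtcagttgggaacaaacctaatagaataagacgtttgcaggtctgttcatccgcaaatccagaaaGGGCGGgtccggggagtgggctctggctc

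The Rims3 window held 3 GC boxes, the Erc2 window 2 GC boxes, the Sv2b window 1 GC box and 1 TATA motif, and the Bsn window 2 NRF1 motifs and no GC box. RefSeq windows were matched for 34 of the 44 members. These 34 have 43 windows, of which 28 (65.1%) held the GC box, against 35.7% of all 32851 promoter windows of the same length. The NRF1 motif was in 2 of the 43 (4.65%), those of Bsn and Stxbp5, against 0.971% of all windows. The cAMP response element was also in 2 (4.65%), those of Napa and Syn1, against 1.79%, and the TATA motif in 3 (6.98%), those of Rab3b and Sv2b, against 13.6%. These counts describe letters in the windows and carry no test.

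Together the members took 1.66 to 1.91% of all counts in knockdown libraries with morphine, 1.79 to 1.96% in scramble libraries with morphine and 1.80 to 1.92% in scramble libraries with saline. Per length of exon they spanned a wide range, as the plot of levels shows. At the top stood Vamp2, the vesicle SNARE of most forebrain synapses, at a mean of 279 CPM per kb over all 12 libraries, Syp, the vesicle membrane protein synaptophysin, at 270.1 CPM per kb, Dnm1, the GTPase dynamin that pinches off endocytic vesicles, at 258 CPM per kb, and Snap25 at 221 CPM per kb. The lowest were Syn3, a minor synapsin, at 0.890 CPM per kb and Sv2c, the SV2 paralogue known from basal ganglia, at 1.55 CPM per kb.

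Levels spread widely within each role too. Among the calcium sensors Syt1, the fast sensor of forebrain synapses, was highest at 175 CPM per kb and Syt2, its counterpart in fast-spiking interneurons and hindbrain, lowest at 2.30 CPM per kb. The SNARE machinery spanned Vamp2 down to Vamp1 at 7.30 CPM per kb, and endocytosis Dnm1 down to Amph, which encodes amphiphysin, at 48.0 CPM per kb. The active zone genes were lower as a set, with a highest level of 40.9 CPM per kb for Bsn, the giant scaffold bassoon, and a lowest of 2.42 CPM per kb for Unc13c, a Munc13 paralogue best known from cerebellum. The top 2 per kb, Vamp2 and Syp, could not be ranked within their spread. Dnm1 overlapped both in every group, and Snap25 overlapped Syp in knockdown mice. Dnm1 was at 228 to 298 CPM per kb in knockdown mice with morphine. It was at 235 to 280 in scramble mice with morphine and 247 to 266 in scramble mice with saline. Vamp2 was at 251 to 298 CPM per kb in knockdown mice with morphine, 272 to 309.6 in scramble mice with morphine and 262 to 286 in scramble mice with saline, while Syp was at 231 to 299.9 CPM per kb in knockdown mice with morphine, 262 to 301 in scramble mice with morphine and 256 to 285 in scramble mice with saline.

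**Figure D1:**
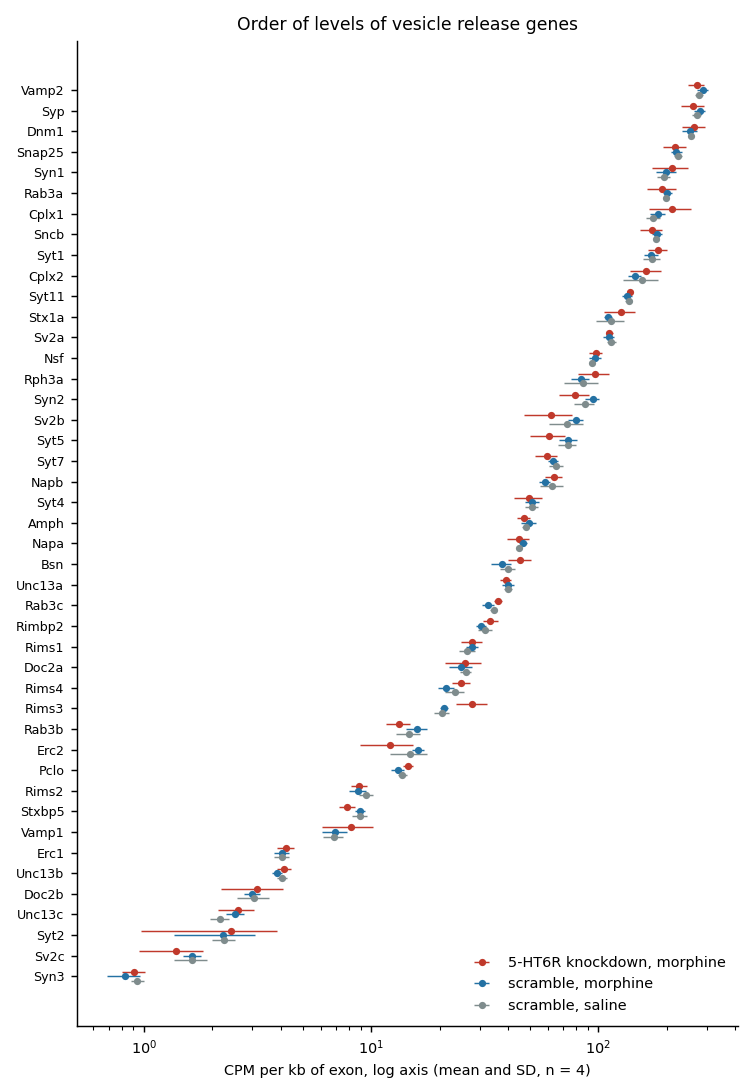
Each gene's level in CPM per kb of exon on a log axis, with points for group means and bars for SD (n = 4 libraries a group), ordered by the mean over all 12 libraries. The order runs from Vamp2 at 279 CPM per kb to Syn3 at 0.890 CPM per kb, and the knockdown points of Rims3 lie to the right of the 2 scramble groups.

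The first comparison asked what the knockdown altered in mice that had received morphine. With edgeR's quasi-likelihood test and Benjamini-Hochberg adjustment over all genes, 0 of 44 members passed at 0.05 in knockdown mice with morphine against scramble mice with morphine, where the background was 0% of genes called; DESeq2 called 1 member, Rims3, against 0.828% of the genes it adjusted, and limma voom 0. At an unadjusted p under 0.05 there were 11 members, 25% of the list, against 12% of all genes tested and 16.7% of the 10147 protein-coding genes with a mean of at least 10 CPM. Of the 11, 5 were higher in knockdown mice, namely Rims3, Bsn, Rims4, Pclo and Rab3c, against 5.87% of all genes, and 6 were lower, namely Syt5, Stxbp5, Rab3b, Syn2, Erc2 and Sv2b, against 6.17%. That count of 11 depends on single libraries. It was 3 without knockdown replicate 3 and 16 without knockdown replicate 5. Leaving out scramble morphine replicate 3 gave 5, replicate 4 of the same group also 5, and its replicate 5 gave 7. In bulk tissue, fewer cells of a type and less RNA per cell cannot be told apart.

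The log2 fold changes of the members ran from -0.41 for Erc2 to 0.41 for Rims3, with a median of 0.04 against 0.00 over all genes, and 27 of 44 lay above 0 against 50.7% of all genes. Libraries scaled to their total counts instead, which moves the median of all genes to -0.06, left 17 of 44 above 0. By role, 10 of 12 active zone genes, 6 of 9 calcium sensors and 6 of 10 SNARE genes were above 0, but 4 of 11 vesicle protein genes and 1 of 2 endocytosis genes; scaling to total counts left 6 of the 12 active zone genes above 0.

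**Figure D2:**
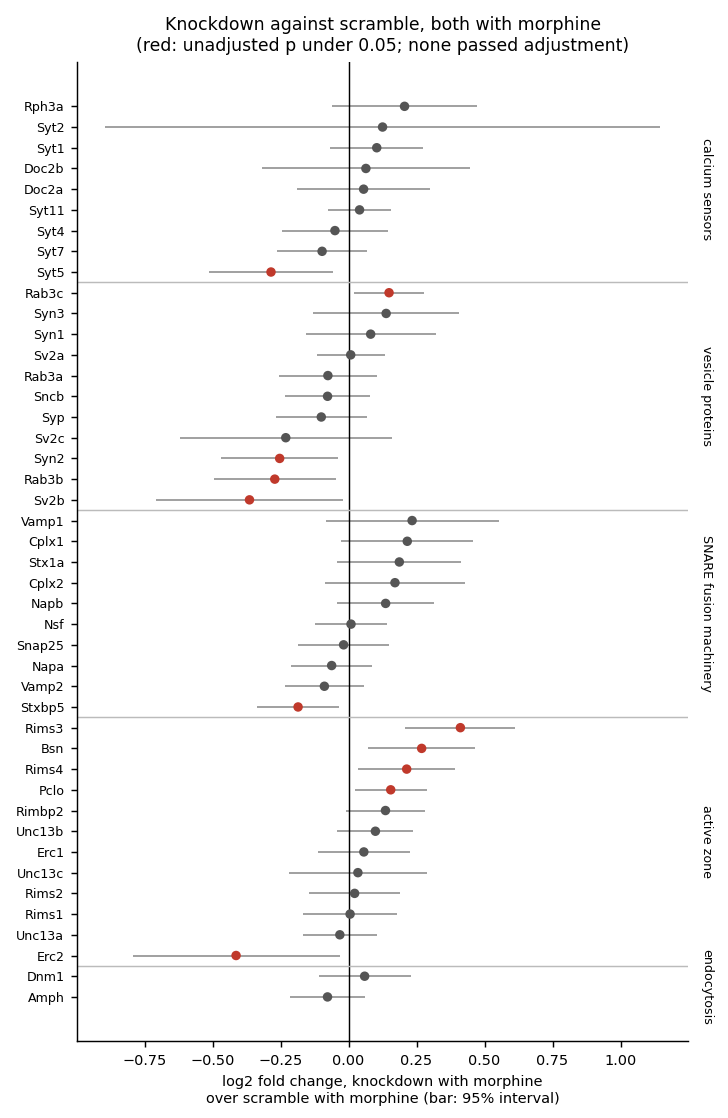
Log2 fold change of each member, knockdown with morphine over scramble with morphine, with 95% intervals from edgeR, grouped by role. Red points have an unadjusted p under 0.05 (11 of 44), and none passed adjustment. Rims3 at 0.41 and Erc2 at -0.41 lie at the 2 ends of the active zone genes.

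Among the active zone genes, Rims3 had the smallest p of all members. It encodes RIM3, a short member of the RIM family that lacks most domains of the long RIMs, and is ENSMUSG00000032890, on the plus strand of chromosome 4 at 120854816 to 120896579 in GENCODE M21, on the same assembly as mm10. Its level was 206, 251, 252 and 181 CPM in knockdown libraries with morphine, 169, 162, 162 and 176 CPM in scramble libraries with morphine and 165, 172, 172 and 145 CPM in scramble libraries with saline. All 4 knockdown libraries lay above all 8 scramble libraries, with knockdown replicate 5 nearest to them. The log2 fold change against scramble mice with morphine was 0.41 (SE 0.09), a fold of 1.33 with a 95% interval of 1.16 to 1.53, with an unadjusted p of 0.000584, rank 44 of 21958, and an edgeR adjusted p of 0.248. It was 0.34 to 0.49 when each library in turn was left out. Without knockdown replicate 5, the library nearest to the scramble values, the edgeR adjusted p was 0.0162, where 1.66% of all genes passed. Without knockdown replicate 1 the edgeR adjusted p was 0.564, without replicate 2 it was 0.190 and without replicate 3 it was 0.446. DESeq2 on all libraries gave a Benjamini-Hochberg adjusted p of 0.0172. With the share of the ribosomal RNA locus as a covariate, edgeR gave a larger value of 0.54 with a wider SE of 0.16 (adjusted p = 0.941). That share did not overlap between these groups, so this fit cannot separate it from the knockdown. Among 21 alternatives Rims3 was the only member that passed in any of them.

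Bsn and Pclo encode bassoon and piccolo, the pair of giant scaffolds that line the active zone. Bsn was at 705, 786, 787 and 609 CPM in knockdown libraries with morphine, 537, 563, 675 and 621 CPM in scramble libraries with morphine and 570.3, 648, 693 and 636 CPM in scramble libraries with saline. Knockdown replicates 1, 2 and 3 exceeded every scramble library, and replicate 5 lay among them. Its log2 fold change against scramble mice with morphine was 0.27 (SE 0.09; adjusted p = 0.324 in edgeR). Pclo was at 303, 329, 336 and 341 CPM in knockdown libraries with morphine, 275, 280.4, 311 and 308 CPM in scramble libraries with morphine and 294, 299.8, 326 and 313 CPM in scramble libraries with saline, for a log2 fold change of 0.16 (SE 0.06; adjusted p = 0.361 in edgeR). Knockdown replicate 1 of Pclo lay within the range of the scramble libraries, and replicate 5, the lowest knockdown library for Bsn, was the highest of all 12 for Pclo. With the ribosomal RNA covariate Pclo had 0.28, and with scaling to total counts 0.09.

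Rims4, which encodes the other short RIM, was at 128, 126, 133 and 108 CPM in knockdown libraries with morphine, 96.3, 106, 117 and 106 CPM in scramble libraries with morphine and 108, 112, 132 and 110.4 CPM in scramble libraries with saline. Its log2 fold change against scramble mice with morphine was 0.21 (SE 0.08; adjusted p = 0.351 in edgeR), and the groups overlapped through knockdown replicate 5. The long RIMs, which scaffold calcium channels and Munc13, gave 0.01 (SE 0.08) for Rims1 and 0.02 (SE 0.08) for Rims2. Rimbp2, whose product links RIMs to calcium channels, was at 257, 296, 254 and 255 CPM in knockdown libraries with morphine and 228, 238, 253 and 249 CPM in scramble libraries with morphine, with a log2 fold change of 0.14 (SE 0.07; adjusted p = 0.441 in edgeR). Rims3 and Rimbp2 were the 2 of 44 members whose libraries did not overlap between these groups, against 5.85% of all genes, and Rimbp2 overlapped with scramble mice with saline, at 250.1, 270.4, 260.2 and 229.9 CPM. Rimbp2 had 0.07 with scaling to total counts and 0.08 without knockdown replicate 2. The Munc13 priming factors had log2 fold changes of -0.03 for Unc13a, 0.10 for Unc13b and 0.03 for Unc13c.

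**Figure D3:**
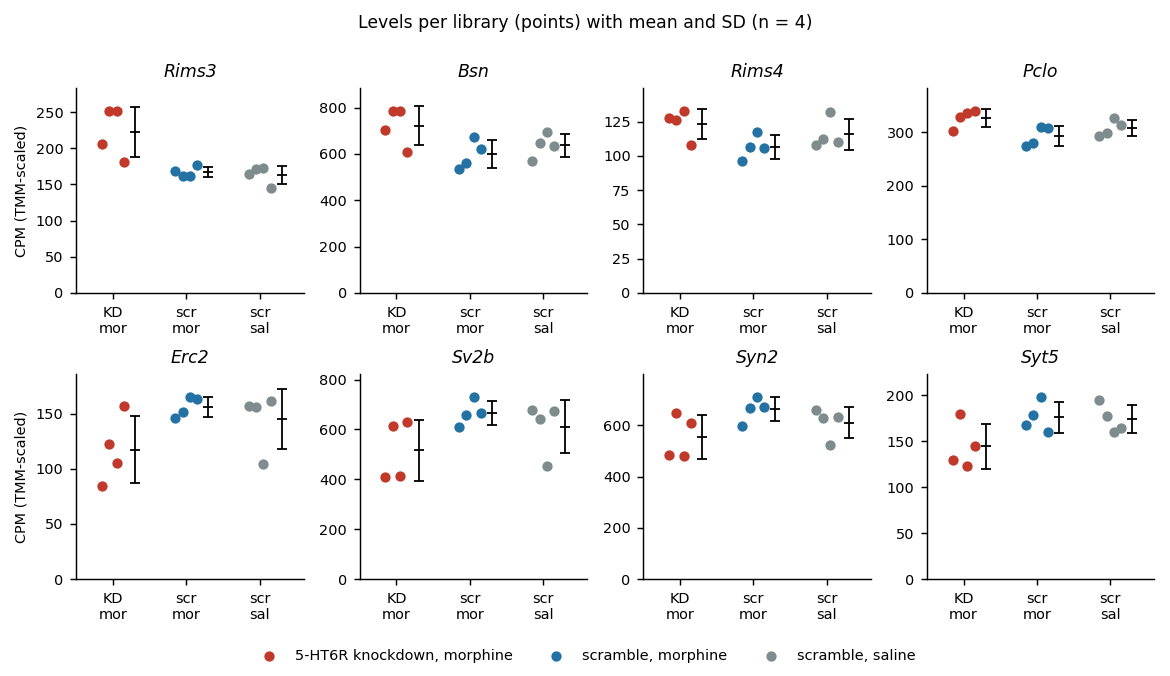
TMM-scaled CPM per library for 8 members with an unadjusted p under 0.05 in the knockdown comparison, with mean and SD (n = 4) beside the points; KD is the 5-HT6R knockdown, scr scramble, mor morphine and sal saline. For Rims3 the knockdown points, 181 to 252 CPM, all lie above the scramble points, while for Erc2, Sv2b and Syn2 the knockdown points spread widely and scramble saline replicate 4 sits low.

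Erc2 encodes ELKS2, also called CAST, an active zone scaffold that binds RIM and bassoon. It was at 84.8, 122, 105 and 157 CPM in knockdown libraries with morphine, 146, 151, 165 and 163 CPM in scramble libraries with morphine and 157, 156, 104 and 161 CPM in scramble libraries with saline. Knockdown replicates 1, 2 and 3 and scramble saline replicate 4 were low, and knockdown replicate 5 was at the level of the other scramble libraries. The log2 fold change against scramble mice with morphine was -0.41 (SE 0.17; adjusted p = 0.383 in edgeR); it was -0.59 without knockdown replicate 5, with an edgeR adjusted p of 0.0723, and -0.17 (SE 0.29) with the ribosomal RNA covariate. Its paralogue Erc1 had 0.06 (SE 0.08).

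Among vesicle proteins, Sv2b and Syn2 followed a like order of libraries. Sv2b, which encodes a vesicle glycoprotein of the SV2 family, was at 411, 615, 412 and 630.2 CPM in knockdown libraries with morphine, 610.2, 657, 729.8 and 665 CPM in scramble libraries with morphine and 678, 641, 455 and 672 CPM in scramble libraries with saline. Knockdown replicates 1 and 3 and scramble saline replicate 4 stood apart below the other 9 libraries. The log2 fold change against scramble mice with morphine was -0.36 (SE 0.16; adjusted p = 0.390 in edgeR), and the groups overlapped. Syn2, which encodes synapsin II, a protein that tethers vesicles in the reserve pool, was at 486, 647, 480.5 and 610.4 CPM in knockdown libraries with morphine, 599, 668, 711 and 672 CPM in scramble libraries with morphine and 661, 628, 522 and 635 CPM in scramble libraries with saline. The same 3 libraries were lowest for Syn2, whose log2 fold change was -0.25 (SE 0.10; adjusted p = 0.361 in edgeR).

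A marker of cortical excitatory neurons, Neurod6, had a similar order, at 56.7, 79.7, 51.2 and 86.3 CPM in knockdown libraries with morphine, 86.4, 91.6, 104 and 90.0 CPM in scramble libraries with morphine and 99.0, 89.0, 74.9 and 99.4 CPM in scramble libraries with saline. It was picked after its values were seen. The summed level of all 9 markers of that list was 5314 to 7041 CPM in knockdown libraries with morphine, 5818 to 6323 CPM in scramble libraries with morphine and 5606 to 6386 CPM in scramble libraries with saline, so the list as a whole overlapped. Its sum did not follow Neurod6: knockdown replicate 3, the lowest library for Neurod6, had 6447 CPM, above every scramble library, and scramble saline replicate 4 had 5918 CPM, inside the range of the scramble libraries. The part of neuron composition in the values of Erc2, Sv2b and Syn2 was not tested.

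The Rab3 family, GTPases that bring vesicles to RIM, had members on both sides of 0. Rab3b was at 48.1, 42.6, 41.4 and 53.8 CPM in knockdown libraries with morphine, 57.1, 61.5, 58.8 and 47.2 CPM in scramble libraries with morphine and 49.9, 47.2, 48.2 and 61.0 CPM in scramble libraries with saline, with a log2 fold change of -0.27 (SE 0.11; adjusted p = 0.351 in edgeR) against scramble mice with morphine. Rab3c was at 435, 463, 420.3 and 428 CPM in knockdown libraries with morphine and 364, 384, 422 and 404 CPM in scramble libraries with morphine, with a log2 fold change of 0.15 (SE 0.06; adjusted p = 0.362 in edgeR). The groups overlapped in both genes. Rab3b had -0.41 with the ribosomal RNA covariate, and Rab3c 0.08 with scaling to total counts. Rab3a, the most abundant of the 3, had -0.08 (SE 0.08). Synaptophysin (Syp) had -0.10 (SE 0.08), Sv2a 0.01 (SE 0.06), Syn1 0.08 (SE 0.11) and Sncb, which encodes beta-synuclein, -0.08 (SE 0.07).

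Of the calcium sensors, Syt5 had the lowest log2 fold change and Rph3a, which encodes the Rab3 effector rabphilin, the highest at 0.21 (SE 0.12). Syt5 was at 129.9, 179, 123 and 144 CPM in knockdown libraries with morphine, 167, 178, 198 and 159 CPM in scramble libraries with morphine and 195, 177, 159.9 and 165 CPM in scramble libraries with saline. Knockdown replicates 1, 3 and 5 lay below every scramble library, and replicate 2 lay among them. Its log2 fold change was -0.29 (SE 0.11; adjusted p = 0.340 in edgeR) against scramble mice with morphine. Syt1 had 0.10 (SE 0.08), Syt7, the slow high-affinity sensor, -0.10 (SE 0.08), Syt11 0.04 (SE 0.05) and Syt4 -0.05 (SE 0.09). Doc2a and Doc2b, high-affinity sensors of spontaneous release, each had 0.06 (SE 0.11 and 0.18), but 39.4% of the exon bases of Doc2a also belong to Ino80e on the opposite strand, and no source used here gives whether counting used the strand.

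In the SNARE machinery, the core proteins had intervals that included 0, with log2 fold changes of -0.09 (SE 0.07) for Vamp2, -0.02 (SE 0.08) for Snap25 and 0.19 (SE 0.11) for Stx1a, which encodes syntaxin 1A. Without knockdown replicate 2 Stx1a had 0.10, with scaling to total counts 0.12 and with the ribosomal RNA covariate 0.31. Stxbp5, which encodes tomosyn, an inhibitor that occupies syntaxin and SNAP-25 in place of synaptobrevin, had the lowest value. It was at 126, 126, 121 and 145 CPM in knockdown libraries with morphine, 140.2, 142, 156 and 151 CPM in scramble libraries with morphine and 147, 148, 133 and 161 CPM in scramble libraries with saline. Knockdown replicates 1, 2 and 3 lay below every scramble library, and replicate 5 among them. The log2 fold change was -0.19 (SE 0.07; adjusted p = 0.349 in edgeR) against scramble mice with morphine. Nsf, the ATPase that disassembles SNARE complexes, had 0.01 (SE 0.06), and its adaptors had -0.06 (SE 0.07) for Napa and 0.14 (SE 0.08) for Napb. For endocytosis, Dnm1 had 0.06 (SE 0.08) and Amph -0.08 (SE 0.06).

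Knockdown replicate 3 was the highest of the 12 libraries for 11 members. These included Vamp1, Cplx1 and Syt2, which are known from parvalbumin interneurons. The others were Syt1, Rph3a, Snap25, Cplx2, Rims1, Rims3, Rims4 and Bsn, so the high values were not confined to members known from those cells. Vamp1 had the highest log2 fold change of the SNARE genes in the fit to all libraries, 0.23 (SE 0.15), but 0.05 without knockdown replicate 3 and 0.62 with the ribosomal RNA covariate. It was at 66.4, 81.9, 113 and 70.5 CPM in knockdown libraries with morphine, 61.4, 73.4, 65.7 and 81.4 CPM in scramble libraries with morphine and 60.6, 76.1, 73.9 and 67.2 CPM in scramble libraries with saline. Cplx1, which encodes complexin 1, was at 411, 471, 593 and 375 CPM in knockdown libraries with morphine, 357, 404, 405 and 427 CPM in scramble libraries with morphine and 359, 384, 419 and 367 CPM in scramble libraries with saline. Its log2 fold change against scramble mice with morphine was 0.22 (SE 0.11), 0.07 without knockdown replicate 3 and 0.46 with the covariate. Syt2 was at 5.68, 16.6, 32.5 and 19.1 CPM in knockdown libraries with morphine, 17.5, 8.03, 18.4 and 23.8 CPM in scramble libraries with morphine and 14.3, 18.5, 17.8 and 18.4 CPM in scramble libraries with saline. Pvalb, the marker of that interneuron class, was also highest in knockdown replicate 3, at 21.8 CPM, with 12.1 to 13.6 CPM in the other knockdown libraries, 11.4 to 15.2 CPM in scramble libraries with morphine and 13.9 to 16.9 CPM in scramble libraries with saline. The 8 interneuron markers summed to 602 to 649.8 CPM in knockdown libraries with morphine and 650.2 to 667 CPM in scramble libraries with morphine. In scramble libraries with saline they summed to 618 to 668 CPM. Knockdown replicate 3 had 645 CPM, below every scramble library with morphine, so that sum did not follow Pvalb. Pvalb was picked after its values were seen, and the part of interneuron content was not tested.

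**Figure D4:**
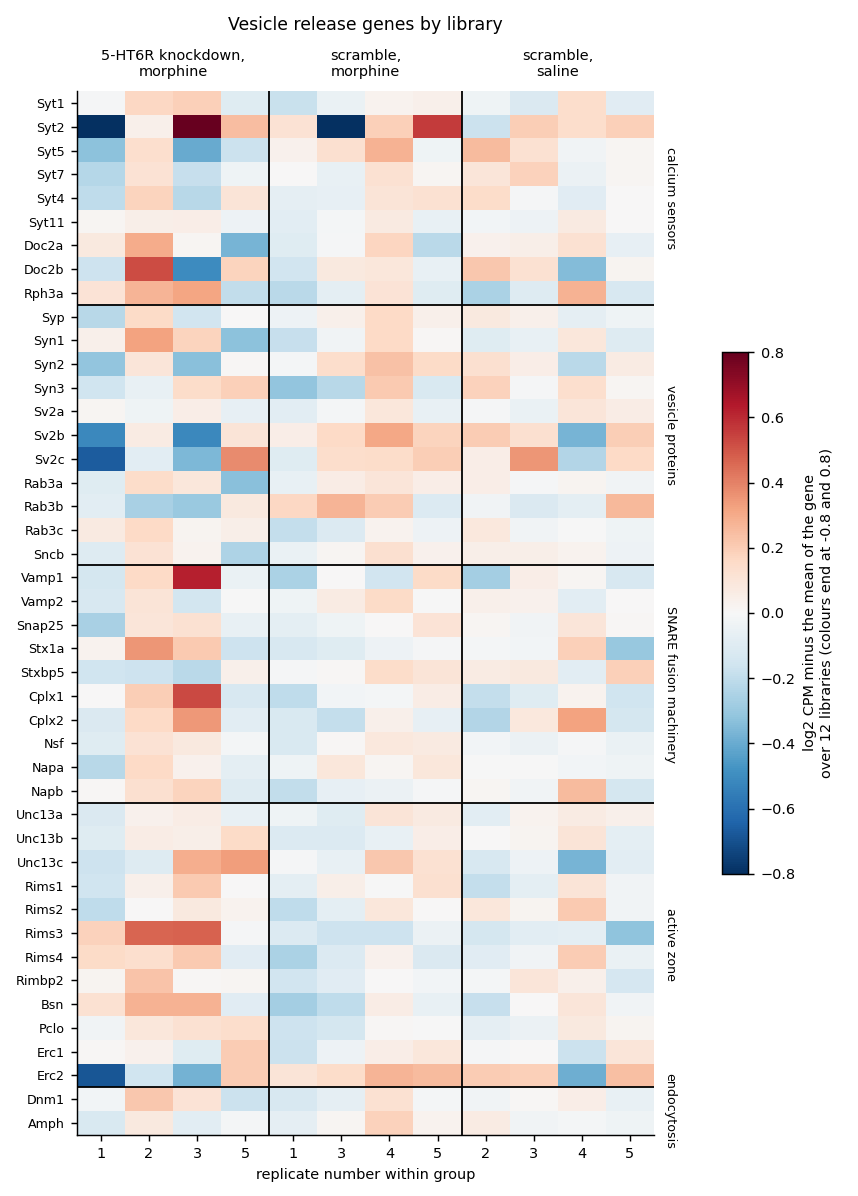
Log2 CPM of each member minus its own mean over the 12 libraries, with libraries in columns by replicate number and members in rows by role; colours end at -0.8 and 0.8. Knockdown replicates 1 and 3 and scramble saline replicate 4 are blue for Sv2b, Syn2 and Erc2, and knockdown replicate 3 is red for Syt2, Vamp1 and Cplx1.

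Spread over all members was uneven across libraries as well as genes. Knockdown replicate 1 was the lowest of the 12 libraries for 11 members and the highest for 0, knockdown replicate 2 the highest for 11 and the lowest for 0, and knockdown replicate 3 the highest for 11 and the lowest for 7. In scramble mice with morphine, replicate 1 was the lowest for 12 members, replicate 4 the highest for 11, and replicate 5 neither for any member. Knockdown replicate 2 also had the highest summed excitatory markers of the 12 libraries, 7041 CPM, and the lowest sums of the 8 myelin markers, 1248 CPM, and of the 6 microglial markers, 378 CPM, and their part in these counts was not tested. Biological coefficients of variation from edgeR ran from 6.85% for Syt11 to 44.2% for Syt2.

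Ratios between paralogues within a library do not depend on the scaling of that library. After the values were seen, 20 such pairs were formed, so they describe these libraries and carry no test. The pairs shown in full were picked from the 20, also after the values were seen. The Erc2 to Erc1 ratio was 1.27, 1.80, 1.69 and 2.05 in knockdown libraries with morphine, 2.48, 2.34, 2.39 and 2.30 in scramble libraries with morphine and 2.38, 2.35, 1.77 and 2.27 in scramble libraries with saline. All knockdown libraries lay below all scramble libraries with morphine, and scramble saline replicate 4 lay among the knockdown values. For Sv2b to Sv2a the ratio was 0.782, 1.21, 0.761 and 1.27 in knockdown libraries with morphine, 1.24, 1.28, 1.31 and 1.33 in scramble libraries with morphine and 1.31, 1.28, 0.818 and 1.24 in scramble libraries with saline. For Syn2 to Syn1 it was 0.715, 0.785, 0.643 and 1.16 in knockdown libraries with morphine, 1.03, 1.03, 0.966 and 1.01 in scramble libraries with morphine and 1.07, 0.991, 0.745 and 1.04 in scramble libraries with saline. In both pairs the low libraries were the same as for the single genes, with knockdown replicate 2 low for Syn2 to Syn1 as well.

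The Rims3 to Rims1 ratio went the other way, at 1.15, 1.22, 1.08 and 0.895 in knockdown libraries with morphine, 0.884, 0.782, 0.809 and 0.803 in scramble libraries with morphine and 0.935, 0.902, 0.796 and 0.738 in scramble libraries with saline. Knockdown replicates 1, 2 and 3 exceeded all 8 scramble libraries, and replicate 5 lay just above the scramble libraries with morphine and inside the range of those with saline. Lack of overlap with scramble libraries with morphine was not particular to Erc2 to Erc1 and Rims3 to Rims1. Napb to Napa was at 2.47 to 2.95 in knockdown libraries against 2.25 to 2.42. Unc13b to Unc13a was at 0.1804 to 0.210 against 0.162 to 0.1802. Both overlapped with scramble libraries with saline, at 2.34 to 3.05 and 0.167 to 0.193. The ratios compare counts that are not corrected for transcript length.

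**Figure D5:**
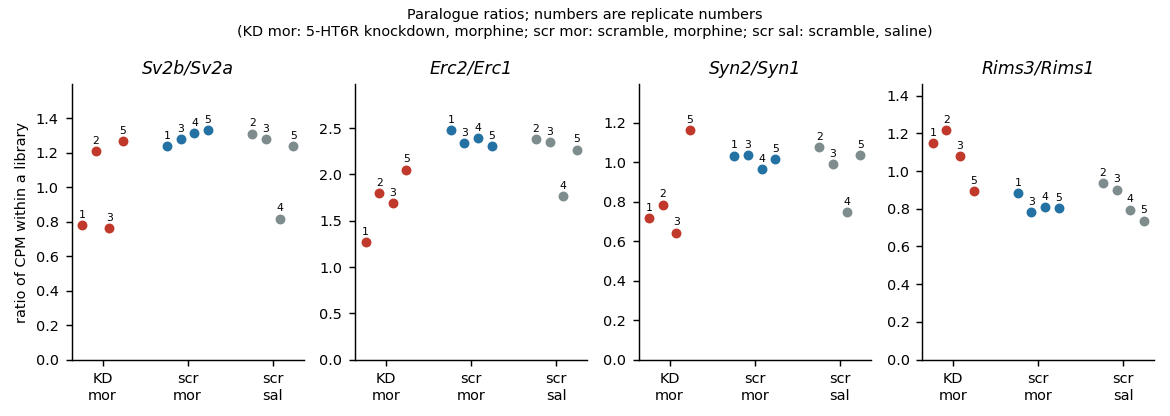
Ratio of CPM between 2 paralogues within each library for 4 pairs, with points labelled by replicate number; KD is the 5-HT6R knockdown, scr scramble, mor morphine and sal saline. Erc2 to Erc1 lies at 1.27 to 2.05 in knockdown libraries against 2.30 to 2.48 in scramble libraries with morphine, and scramble saline replicate 4 lies low in the first 3 panels.

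The second comparison asked what remained of morphine conditioning under the scramble virus. In scramble mice with morphine against scramble mice with saline, 0 of 44 members passed in edgeR after Benjamini-Hochberg adjustment, against a background of 0%, and 0 had an unadjusted p under 0.05, against 3.48% of all genes; DESeq2 also called 0 members, against 0.0182% of genes, and limma voom 0. The log2 fold changes lay between -0.18 for Syn3 and 0.23 for Unc13c, with a median of -0.00 and 21 of 44 above 0, against 49.5% of all genes. No member had libraries that did not overlap, against 3.32% of genes. Above 0 were 2 of 9 calcium sensors, 8 of 11 vesicle protein genes, 5 of 10 SNARE genes, 5 of 12 active zone genes (2 of 12 with the ribosomal RNA covariate) and 1 of 2 endocytosis genes.

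The 4 members of smallest p were Unc13c, Rims2, Syn3 and Rims4, each with an edgeR adjusted p of 0.999. Unc13c was at 21.0, 20.3, 24.6 and 23.0 CPM with morphine and 19.3, 20.5, 16.3 and 19.9 CPM with saline, with a log2 fold change of 0.23 (SE 0.12), and 0.07 (SE 0.13) with the ribosomal RNA covariate. Rims2 was at 81.4, 88.5, 99.5 and 93.8 CPM with morphine and 99.5, 94.9, 108 and 91.7 CPM with saline, with a log2 fold change of -0.12 (SE 0.08), and -0.23 with that covariate. Both overlapped between groups. Syn3 was at 8.72, 9.32, 12.5 and 9.98 CPM with morphine and 12.3, 10.8, 11.9 and 11.0 CPM with saline, with a log2 fold change of -0.18 (SE 0.13), which was -0.31 with the covariate, -0.12 without scramble morphine replicate 1 and -0.30 without replicate 4 of that group. Of the exon bases of Syn3, 14.1% also belong to Timp3 on the opposite strand. Rims4 had -0.12 (SE 0.08). Without scramble saline replicate 4 Rims2 had -0.07 and Rims4 -0.05, and without scramble morphine replicate 1 they had -0.07 and -0.08. Of the genes low in scramble saline replicate 4, Sv2b at 0.12 (SE 0.16) had 0.00 without that library. Erc2 at 0.11 (SE 0.17) had -0.02 without it, and also -0.02 with the covariate. Other alternatives moved them up. With replicate number as a block Sv2b had 0.26 (SE 0.14) and Erc2 0.24 (SE 0.15), and without scramble saline replicate 5 Erc2 had 0.17.

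The interval of each fold bounds what these libraries could show. The spread behind it was estimated over all 12 libraries, so it includes the knockdown libraries, which are outside this comparison. For each gene given here, the coefficient of variation of CPM was largest in the knockdown libraries, for Rims3 15.8%. For Rims3 it was 4.08% in scramble libraries with morphine and 7.70% in scramble libraries with saline. For Rims3 the fold of morphine over saline was 1.02 with a 95% interval of 0.890 to 1.18, for Bsn 0.940 (0.820 to 1.08), for Vamp2 1.03 (0.936 to 1.14), for Snap25 0.984 (0.877 to 1.10) and for Syt1 0.990 (0.879 to 1.11). Syt2 had the widest interval, 0.485 to 1.99.

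The third comparison set knockdown mice with morphine against scramble mice with saline, so that the effects of virus and drug cannot be told apart. It shares the knockdown libraries with the first comparison and the saline libraries with the second, so its values repeat part of theirs. In edgeR 0 of 44 members passed after Benjamini-Hochberg adjustment, against 0.0137% of all genes, and 5 had an unadjusted p under 0.05, against 9.35%. DESeq2 called 1, Rims3, against 0.831% of genes, and limma voom 0. Rims3, Cplx1 and Unc13c were the 3 higher in knockdown mice, against 4.97% of all genes, and Stxbp5 and Syt5 the 2 lower, against 4.37%. The count of 5 was 1 without knockdown replicate 3, 11 without knockdown replicate 5, 2 without scramble saline replicate 2 and also 2 without replicate 5, and 8 without scramble saline replicate 4. The median log2 fold change was 0.02, against -0.00 over all genes, and 23 of 44 members were above 0, against 49.6% of genes. Above 0 were 5 of 9 calcium sensors, 2 of 11 vesicle protein genes, 6 of 10 SNARE genes, 9 of 12 active zone genes and 1 of 2 endocytosis genes.

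Rims3 averaged 223 ± 35.1 CPM in knockdown mice with morphine and 164 ± 12.6 CPM in scramble mice with saline (SD, n = 4 each), a log2 fold change of 0.44 (SE 0.09) and a fold of 1.36 with a 95% interval of 1.18 to 1.57 (adjusted p = 0.214 in edgeR). It was the 1 member of 44 whose libraries did not overlap, against 4.34% of all genes. DESeq2 gave a Benjamini-Hochberg adjusted p of 0.00508. Without knockdown replicate 5 edgeR gave 0.53 and an adjusted p of 0.0364, where 0.244% of all genes passed. The edgeR adjusted p was 0.295 without knockdown replicate 1, 0.192 without replicate 2 and 0.432 without replicate 3. With the ribosomal RNA share as a covariate edgeR gave 0.51 and an adjusted p of 0.495. Stxbp5 had -0.19 (SE 0.07), averaging 129.5 ± 10.5 CPM in knockdown mice with morphine and 147 ± 11.3 CPM in scramble mice with saline. Syt5 had -0.27 (SE 0.11), averaging 144 ± 24.8 CPM in knockdown mice with morphine and 174 ± 15.5 CPM in scramble mice with saline. Cplx1 had 0.28 (SE 0.11), and 0.13 without knockdown replicate 3. Unc13c had 0.26 (SE 0.12), at 18.8, 19.7, 25.9 and 26.6 CPM in knockdown mice with morphine against 19.3, 20.5, 16.3 and 19.9 CPM in scramble mice with saline, and replicates 1 and 2 of the knockdown lay within the saline range. Sv2b had -0.24 (SE 0.16) and Erc2 -0.30 (SE 0.17), and without scramble saline replicate 4 they had -0.36 and -0.43. Sv2b had -0.15 without knockdown replicate 1, -0.15 without knockdown replicate 3 and -0.42 in limma voom. Erc2 had -0.18 without knockdown replicate 1, -0.48 without knockdown replicate 5, -0.19 with the covariate and -0.48 in limma voom. Unc13c had 0.17 without knockdown replicate 5 and 0.39 with the covariate.

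Other genes of the same pathway were taken from a list of 60 that includes further synaptotagmins, liprins, Mints, SNAREs and transmitter transporters, all of them tested. In knockdown mice with morphine against scramble mice with morphine, 0 of 60 passed in edgeR, against 0% of all genes. An unadjusted p under 0.05 was found for 15 (25%, the same share as among the members), against 12% of all genes. It was 16.7% for protein-coding genes with a mean of at least 10 CPM. Of the 15, 3 were higher, against 5.87% of all genes, and 12 lower, against 6.17%. The median log2 fold change was -0.02, and 26 of 60 (43.3%) were above 0, against 50.7% of all genes. The smallest p-values were those of Apba1, which encodes the Munc18-binding adaptor Mint1, at 0.52 (SE 0.14; adjusted p = 0.264 in edgeR), and of Syt6, a synaptotagmin, at -0.79 (SE 0.21). Apba1 was at 319, 300.4, 314 and 206 CPM in knockdown libraries with morphine, 184, 193, 229 and 188 CPM in scramble libraries with morphine and 205, 219, 283 and 212 CPM in scramble libraries with saline. Knockdown replicate 5 again lay among the scramble libraries. Without that library 5 of the 60 passed in edgeR after Benjamini-Hochberg adjustment, against 1.66% of all genes tested. Higher in knockdown mice were Apba1 at 0.64, Slc32a1, the vesicular GABA transporter, at 0.51 and Ppfia3, a liprin, at 0.39. Syt6 at -1.02 and Itsn2, an endocytic scaffold, at -0.28 were lower. Slc32a1 is also on the list of 8 interneuron markers. The sum of that list went the other way, at 602 to 649.8 CPM in knockdown libraries and 650.2 to 667 CPM in scramble libraries with morphine. On all libraries DESeq2 called 2 of the 60, Apba1 and Syt6, against 0.828% of genes, and limma voom 0.

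With morphine against saline under the scramble virus, 0 of the 60 passed in edgeR, 0 had an unadjusted p under 0.05, against 3.48% of all genes, DESeq2 and limma voom called 0, and the smallest p-values were those of Rab27b at 0.17 and Snap29 at 0.11 on the log2 scale. In knockdown mice with morphine against scramble mice with saline, 0 of 60 passed in edgeR, and 5 (8.33%) had an unadjusted p under 0.05, against 9.35% of all genes. DESeq2 called 2, Syt6 and Mctp1, against 0.831% of genes, limma voom 0, and edgeR without knockdown replicate 5 called 1, Syt6, against 0.244%. Mctp1, an endoplasmic reticulum protein with calcium-binding C2 domains, was at 44.0, 43.8, 35.4 and 45.6 CPM in knockdown mice with morphine and 54.4, 56.8, 58.1 and 53.7 CPM in scramble mice with saline, without overlap, at -0.40 (SE 0.09; adjusted p = 0.290 in edgeR). Syt6 was at 17.9, 14.5, 13.8 and 25.8 CPM in knockdown mice with morphine and 26.9, 28.6, 29.5 and 40.1 CPM in scramble mice with saline, also without overlap, at -0.79 (SE 0.21; adjusted p = 0.339 in edgeR).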

How the data were processed

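The authors deposited whole-number counts per gene for 12 libraries of mPFC RNA. Poly(A) RNA was selected and sequenced as paired ends after second-strand marking with dUTP, per the labels' protocols. The build mm10 and the tools StringTie 1.3.4d, HISAT2 2.0.4, cutadapt 1.9, edgeR and DESeq2 stand in the submitters' processing notes, with no roles. Neither the annotation release nor the use of strand in counting is given there, so genes that overlap others on the opposite strand are uncertain. Exon overlaps, lengths and coordinates came from GENCODE M21. The largest shares of exon bases overlapped on the opposite strand were those of Doc2a (39.4%), Syp (16.8%), Syt4 (14.5%), Syn3 (14.1%) and Erc1 (11.8%).

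Members, role classes, the list of 60 and the marker lists were chosen with earlier results of these data known. Of 55401 gene IDs, 55141 matched a symbol. The test was edgeR's (4.0.16, under R 4.3.3; filterByExpr with a minimum of 10 counts, TMM scaling, robust quasi-likelihood, 1 mean per group over all 12 libraries, a common biological coefficient of variation of 23.2% on 9 residual degrees of freedom), with two-sided p-values adjusted by the Benjamini-Hochberg method over 21958 genes at 0.05, after a check on simulated data. CPM are TMM-scaled. Given per library in each comparison were the members with an unadjusted p under 0.05, at most 8 and at least 4 by smallest p, and the highest and lowest of each role were given as values. Per-library values of Rimbp2, Cplx1, Vamp1, Syt2, Erc2, Sv2b and Rab3c in the knockdown comparison, and of the markers Neurod6 and Pvalb, go beyond this and were added for what they showed. Alternatives were DESeq2 1.42.0, limma 3.58.1 voom with sample weights, other scalings and filters, the compared groups alone, a replicate block, the ribosomal RNA share as a covariate and each library left out. The counts of members above 0 or with an unadjusted p under 0.05 were recomputed under these after seeing the data.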

Additional observations from a re-analysis of the deposited data

Results flagged for a closer look

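Of 132 groups of 4 libraries, 1 group for each member and condition, 4 had a highest or lowest library whose gap to the next, as a share of the group's range, exceeded Dixon's 95% critical value for 4 values; chance flags about 1 in 20. Rimbp2 was highest in knockdown replicate 2 with morphine, at 295.8 CPM. In scramble mice with saline, replicate 4 was lowest for Erc2 at 104.2 CPM and for Sv2b at 455.0 CPM, and replicate 2 was lowest for Syt2 at 14.3 CPM.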

How the results depend on the processing

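Of 44 members, 0 passed in edgeR in each comparison, and that count was 1 (Rims3) under DESeq2 in knockdown mice with morphine against scramble mice with morphine and again against scramble mice with saline, 0 to 1 in both when each library in turn was left out, where 1 came without knockdown replicate 5, and 0 under every other alternative. The median over members ranged over all 21 alternatives from -0.03 to 0.09, from -0.03 to 0.05 with morphine against saline, and from -0.03 to 0.06 in the third comparison. Of the log2 fold changes of named members, 166 of 168, 84 of 84 and 103 of 105 values kept their direction and side of the threshold in the order of the comparisons, and the other 2 and 2 were the Rims3 values that passed. Limma voom gave 12 members with an unadjusted p under 0.05 in the third comparison, against 5, and the ribosomal RNA covariate 4 with morphine against saline, against 0. Over all genes edgeR called 0, 0 and 3, DESeq2 164, 4 and 147, and edgeR without knockdown replicate 5 called 375, 0 and 55; the cause was not tested.

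The replicate block left 0 members passing in all 3 comparisons, with 2, 1 and 0 genes called in all, medians of 0.04, 0.05 and 0.06, and 13, 1 and 9 members at an unadjusted p under 0.05. Same-numbered libraries correlated at -0.019 to 0.127 in their deviations from the group means and others at -0.180 to 0.121. Since not every same-numbered pair was over 0.1, the numbers were not taken as pairs. In 11 of 18 checks a library correlated best with its own number, a hint from the data and not the design. Each check chose the best of 4 libraries, and the 18 are 9 pairs seen from both sides, so they are not independent. With 4 libraries a group, the 95% interval of the knockdown fold was 0.948 to 1.12 for Syt11, the member of least spread, and 0.537 to 2.21 for Syt2, that of most.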
